A study of Xenopus laevis with 15 samples.

Results

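The genes described here mark the secretory cells of the tadpole epidermis, and their transcripts were measured by RNA sequencing in Xenobots. Xenobots are self-moving bodies that form from the embryonic ectoderm (animal cap) of the frog Xenopus laevis. The genes were chosen by symbol as foxa1, spdef, agr2, agr3, tph1, slc18a2, itln1, itln2, otog and otogl, in either homeolog. Homeologs are the copies of a gene on the long (.L) and short (.S) chromosome sets of this allotetraploid species. The table held 12 such rows among 42638 genes, namely both copies of foxa1 and agr2, the .S copy of spdef, and the .L copies of tph1, slc18a2, itln1, itln2, agr3, otog and otogl. Counts were high enough to test 7 of the 12 rows, and the other 5 are given by their counts.

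The 15 libraries formed 5 groups of 3. All Xenobots came from wild-type ectoderm cut at stage 9 and kept at 14 °C for 7 days in 0.75X MMR, a buffered salt solution, and each library pooled 50 of them. The Ext 4 h and Ext 0 h groups received an extract of 3 homogenised embryos at 10 µL per 14 mL, and were collected 4 h later or at once. The ATP 4 h and ATP 0 h groups received 250 µM ATP and were collected at the same times. The Ctrl group was collected before any stimulus. No 4 h library without a stimulus was used here, so at 4 h the time elapsed and the stimulus cannot be told apart. The labels do not say that replicates came from separate batches of embryos, so the p-values measure only the spread between these pools.

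The epidermis of a Xenopus embryo is a mucociliary epithelium, in which ciliated cells drive a film of mucus across the surface. Goblet cells make most of that mucus, including gel-forming mucins of the otogelin family and the lectin intelectin-1, which binds microbial sugars. Small secretory cells are a separate type. They depend on the transcription factor Foxa1, and release serotonin, which tunes ciliary beating, together with mucin-like and antimicrobial products.

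Total expected counts were 12583039 to 20325075 per library, and ribosomal RNA genes took 20.1% to 43.3% of them. The counts outside ribosomal RNA numbered 8.32 to 14.9 M per library. Levels are given as CPM, a gene's count scaled to the size of its library, with TMM factors applied. The sizes so scaled, with ribosomal RNA included, were 11.1 to 22.4 M. Levels are compared between libraries and not between genes, since gene lengths were not used. Markers of the other epidermal cells were present in each library. Their summed level was 381 to 498 CPM for 22 multiciliated cell genes, 643 to 821 CPM for 16 ionocyte genes and 1774 to 3872 CPM for 14 basal and larval keratinocyte genes. Markers of endoderm, where foxa1 is also used, summed to 1.63 to 5.41 CPM over 17 genes, and 16 neural genes summed to 5.73 to 9.03 CPM. In these bulk libraries, fewer cells of a type and less RNA per cell cannot be told apart.

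No member was called in any of the 12 comparisons, with edgeR's quasi-likelihood test and an adjusted p-value under 0.05 (Benjamini-Hochberg) as the threshold for a call. The gene with the widest differences between groups was agr2, whose copies were both highest in the ATP 0 h group. The serotonin-synthesis gene tph1.L was lower at 4 h than at 0 h in most libraries. The other tested genes, itln1.L, spdef.S and both copies of foxa1, had overlapping ranges between each stimulated group and Ctrl.

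**Figure D1:**
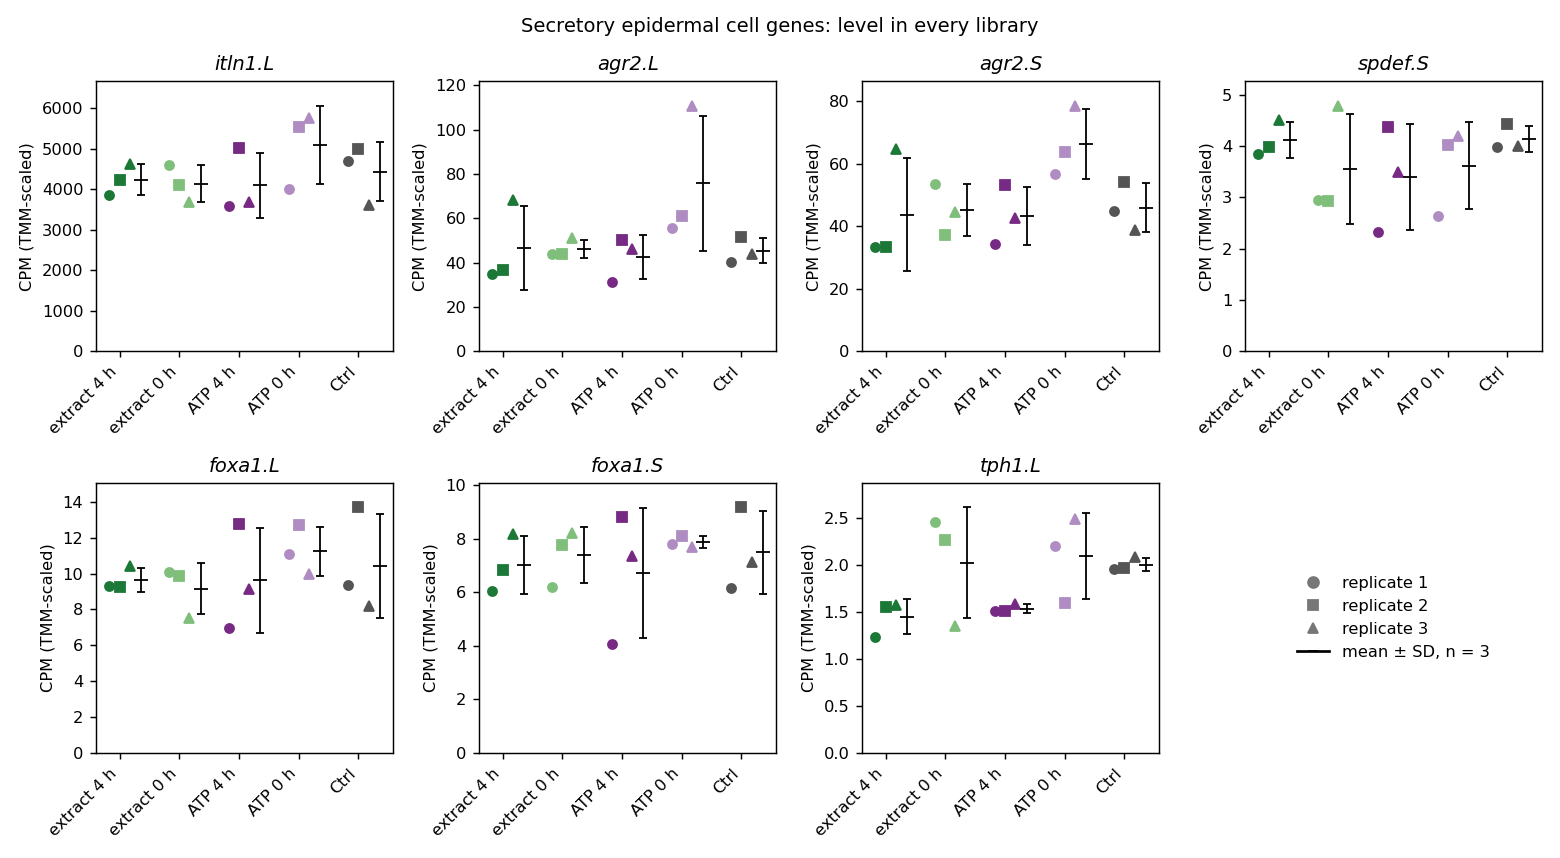
Level of each of the 7 tested secretory genes in CPM (y axes, from 0) in each of the 15 libraries, by group (x axes). Symbols mark the replicate number, and bars show the mean ± SD of 3 libraries. Both agr2 copies peaked in ATP 0 h replicate 3, at 111 and 78.7 CPM, and itln1.L lay between 3594 and 5767 CPM in all 15 libraries.

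Among the goblet cell products, itln1.L encodes intelectin-1, called Xeel in this frog, a lectin secreted onto the epidermal surface. Its level was 3863, 4232 and 4625 CPM in the Ext 4 h libraries and 4611, 4099.7 and 3693 CPM in the Ext 0 h libraries. It was 3594, 5031 and 3689 CPM in the ATP 4 h libraries, 4002, 5547 and 5767 CPM in the ATP 0 h libraries and 4699, 4999.6 and 3614 CPM in the Ctrl libraries. The ranges of all 5 groups overlapped, although the upper 2 values both came from the ATP 0 h group. This 1 gene took 0.491% to 0.809% of the counts outside ribosomal RNA, from at least 40846 counts per library, so counting error was small beside the spread between libraries. The coefficient of variation over the 15 libraries was 16%. Against Ctrl, the log2 fold change was -0.07 at Ext 4 h, -0.10 at Ext 0 h, -0.11 at ATP 4 h and 0.20 at ATP 0 h. The 95% intervals of these 4 values lay between -0.56 and 0.65, and the edgeR adjusted p of the test for any difference among the groups was 0.919. Its relative itln2.L, another intelectin, had 8 counts over all libraries, in 6 of the 15.

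The otogelin family gives the gel-forming part of the mucus, and the members named for it were close to the limit of detection. The row otog.L, named for otogelin, had 66 counts in all, with 18 in the Ext 4 h group, 10 in Ext 0 h, 19 in ATP 4 h, 9 in ATP 0 h and 10 in Ctrl. In each of the 5 groups the library numbered replicate 2 had the most, between 5 and 10 counts. The row otogl.L, named for otogelin-like, had 12 counts in all, with 3 in Ext 4 h, 3 in Ext 0 h, 2 in ATP 4 h, 4 in ATP 0 h and 0 in Ctrl. A count of 0 in the 3 Ctrl libraries allows up to 0.0599 CPM over the group, counting error only. The group means elsewhere were 0.0574 CPM at Ext 4 h, 0.0603 CPM at Ext 0 h, 0.0347 CPM at ATP 4 h and 0.0802 CPM at ATP 0 h, from 4 counts or fewer in each group. Outside the 12 rows, otogl2.L and ag1.S, to which RefSeq gives the aliases otog and agr3, were looked up after their values were seen. The level of otogl2.L averaged 3640 ± 191 CPM at Ext 4 h, 3537 ± 683 CPM at Ext 0 h, 3416 ± 372 CPM at ATP 4 h, 3121 ± 577 CPM at ATP 0 h and 3379 ± 981 CPM in Ctrl (SD, n = 3 each). These ranges overlapped too, and the edgeR adjusted p for any difference was 0.984.

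**Figure D2:**
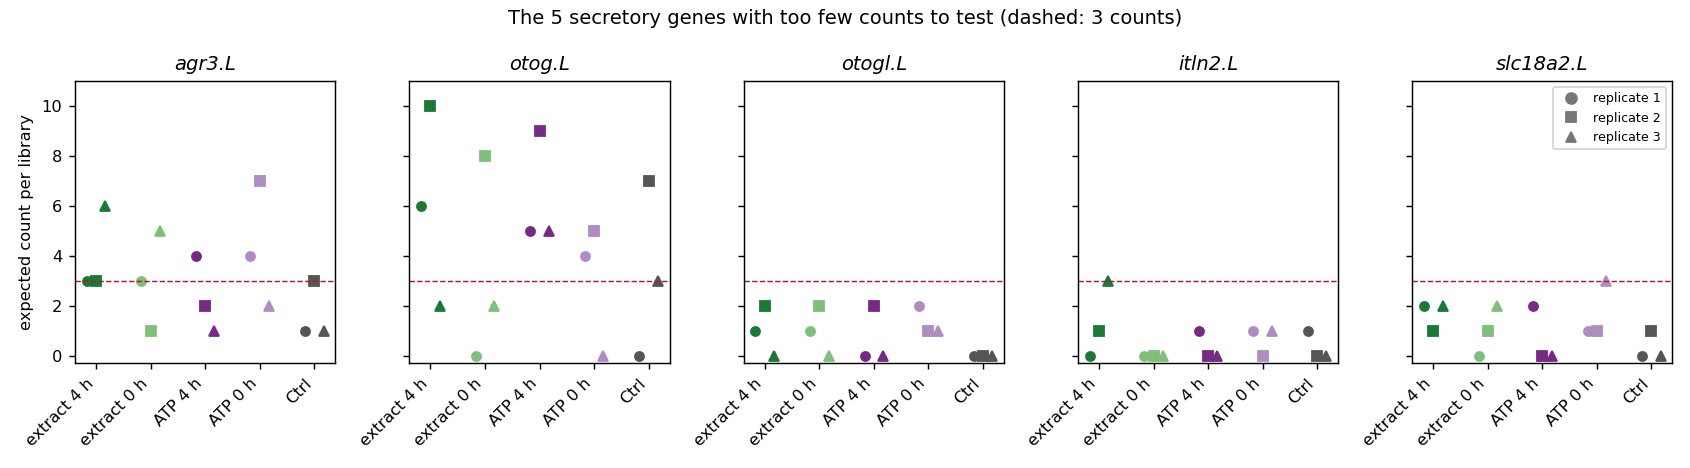
Expected counts per library (y axis) of the 5 secretory genes with too few counts to test, by group (x axes), with symbols for the replicate number. The dashed line marks 3 counts, and no library held more than 10 counts of any of them.

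The agr2 gene encodes a protein disulfide isomerase of the endoplasmic reticulum, which mice need to fold intestinal mucin and which is also a cement gland gene in Xenopus. The level of agr2.L was 34.8, 36.5 and 68.4 CPM at Ext 4 h and 43.8, 43.9 and 50.9 CPM at Ext 0 h. It was 31.1, 50.2 and 45.9 CPM at ATP 4 h, 55.8, 61.0 and 111 CPM at ATP 0 h and 40.4, 51.4 and 43.9 CPM in Ctrl. Every ATP 0 h library lay above every ATP 4 h, Ext 0 h and Ctrl library, whereas Ext 4 h replicate 3 lay above 2 of the ATP 0 h libraries. The level of agr2.S was 33.3, 33.5 and 64.6 CPM at Ext 4 h and 53.7, 37.2 and 44.6 CPM at Ext 0 h. It was 34.4, 53.1 and 42.6 CPM at ATP 4 h, 56.9, 63.8 and 78.7 CPM at ATP 0 h and 44.8, 54.3 and 38.9 CPM in Ctrl. The .S copy kept the same separation of ATP 0 h from those 3 groups, and again Ext 4 h replicate 3 was high. Taken pair by pair, ATP 0 h lay above ATP 4 h without overlap for 7.82% of all genes. It did so above Ext 0 h for 6.89% and above Ctrl for 5.4%. How many genes had ATP 0 h above all 3 groups at once was not counted.

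The log2 fold change of agr2.L between ATP 0 h and Ctrl was 0.74 with a standard error of 0.287 (95% interval 0.12 to 1.36). Its edgeR p was 0.0219 unadjusted and 0.984 adjusted over all genes. The value for agr2.S was 0.53 with a standard error of 0.247 (95% interval -0.002 to 1.06, edgeR p 0.0508 unadjusted and 0.984 adjusted). Between ATP 4 h and ATP 0 h, agr2.L had a log2 fold change of -0.83 (95% interval -1.45 to -0.22), with edgeR p-values of 0.0116 unadjusted and 0.528 adjusted. In the same comparison agr2.S had -0.61 (95% interval -1.14 to -0.08), with an edgeR adjusted p of 0.548. Between Ext 0 h and ATP 0 h the log2 fold changes were -0.71 for agr2.L and -0.56 for agr2.S, each with an edgeR adjusted p of 0.742. The comparisons with ATP 0 h share its 3 libraries and are not independent. Without ATP 0 h replicate 3, the log2 fold change from Ctrl dropped to 0.37 for agr2.L and 0.39 for agr2.S, and without ATP 0 h replicate 1 that of agr2.L was 0.91. Without ATP 0 h replicate 3, agr2.L had a log2 fold change of -0.46 between ATP 4 h and ATP 0 h and -0.34 between Ext 0 h and ATP 0 h. In the authors' deposited table of surrogate-adjusted log2 CPM, both copies passed the threshold in the comparison of ATP 0 h with Ctrl, with limma adjusted p-values of 0.0127 and 0.0468. There 539 of 28009 genes were called. Those values had been adjusted before limma was run, so its p-values may be too small. With 3 surrogate variables in the edgeR fit instead, the log2 fold change was 0.388 for agr2.L and 0.255 for agr2.S. Their edgeR adjusted p-values were 0.111 and 0.374.

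The agr2 copies are similar enough that reads were divided between them, so their split is uncertain, and their sum was tested as well. The summed log2 fold change was 0.64 between ATP 0 h and Ctrl, with an edgeR adjusted p of 0.977, and -0.73 between ATP 4 h and ATP 0 h, with an edgeR adjusted p of 0.54. The .L copy made up 44.9% to 58.5% of agr2 counts over the 15 libraries, with group means of 51.6% at Ext 4 h, 50.8% at Ext 0 h, 49.3% at ATP 4 h, 52.3% at ATP 0 h and 49.7% in Ctrl. The ranges of these shares overlapped between all groups. The row ag1.S, which RefSeq also lists as agr3 and which is a cement gland gene, averaged 7.05 ± 1.65 CPM at ATP 0 h and 9.27 ± 4.81 CPM in Ctrl (SD, n = 3 each). Its log2 fold change there was -0.39, with an edgeR adjusted p of 0.984. The close relative agr3.L had 46 counts, between 1 and 7 in each library, which was too few to test. Group sums of agr3.L were 12 counts at Ext 4 h, 9 at Ext 0 h, 7 at ATP 4 h, 13 at ATP 0 h and 5 in Ctrl.

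Both regulators among the members are transcription factors. The forkhead factor Foxa1 is required for small secretory cells in Xenopus skin, and Spdef is an ETS factor of goblet cell maturation in mice. The level of foxa1.L was 9.28, 9.25 and 10.4 CPM at Ext 4 h and 10.1, 9.85 and 7.50 CPM at Ext 0 h. It was 6.96, 12.8 and 9.12 CPM at ATP 4 h, 11.1, 12.7 and 9.96 CPM at ATP 0 h and 9.36, 13.7 and 8.17 CPM in Ctrl. Each group overlapped Ctrl, whose own 3 libraries held the highest value of all. The other copy, foxa1.S, averaged 7.02 ± 1.08 CPM at Ext 4 h, 7.40 ± 1.06 CPM at Ext 0 h, 6.73 ± 2.43 CPM at ATP 4 h, 7.87 ± 0.21 CPM at ATP 0 h and 7.49 ± 1.54 CPM in Ctrl (SD, n = 3 each). The edgeR adjusted p for any difference among groups was 0.944 for foxa1.L and 0.982 for foxa1.S. The .L copy made up 47.7% to 63.2% of foxa1 counts.

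The level of spdef.S was 3.85, 3.98 and 4.52 CPM at Ext 4 h and 2.95, 2.92 and 4.79 CPM at Ext 0 h. It was 2.32, 4.37 and 3.49 CPM at ATP 4 h, 2.64, 4.03 and 4.20 CPM at ATP 0 h and 3.99, 4.43 and 4.01 CPM in Ctrl. The Ctrl libraries lay close together, and each stimulated group overlapped them. The log2 fold change from Ctrl was -0.01 at Ext 4 h, -0.24 at Ext 0 h, -0.29 at ATP 4 h and -0.20 at ATP 0 h, within 95% intervals that reached down to -0.82 and up to 0.52. The edgeR adjusted p for any difference was 0.947.

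The serotonin arm of the small secretory cell was represented by tph1.L, which encodes tryptophan hydroxylase, the rate-limiting enzyme of serotonin synthesis, and slc18a2.L, which encodes a transporter that loads monoamines into vesicles. The level of tph1.L was 1.24, 1.55 and 1.57 CPM at Ext 4 h and 2.46, 2.27 and 1.36 CPM at Ext 0 h. It was 1.51, 1.51 and 1.59 CPM at ATP 4 h, 2.21, 1.60 and 2.49 CPM at ATP 0 h and 1.96, 1.97 and 2.08 CPM in Ctrl. All 6 libraries at 4 h lay below all 3 Ctrl libraries, and of the 6 libraries at 0 h only Ext 0 h replicate 3 lay within the range of the 4 h libraries. ATP 0 h replicate 2, at 1.60 CPM, was barely above the highest of them, at 1.59 CPM. These levels rest on 15 to 44 counts per library. The share of all genes with every 4 h library below every Ctrl library was not counted. The mean was 1.49 ± 0.130 CPM at 4 h and 2.06 ± 0.473 CPM at 0 h (SD, n = 6 each). The log2 fold change of 4 h over 0 h, averaged over both stimuli, was -0.47 with a standard error of 0.185 (95% interval -0.86 to -0.07), with edgeR p-values of 0.0232 unadjusted and 0.469 adjusted. It ranged from -0.57 to -0.39 when any 1 library was left out. With surrogate variables in the fit it was -0.29 (edgeR adjusted p 0.721). In the authors' deposited table it was -0.33 (limma adjusted p 0.155).

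Against Ctrl, tph1.L had a log2 fold change of -0.46 at Ext 4 h (95% interval -1.02 to 0.10, edgeR adjusted p 0.68) and -0.38 at ATP 4 h (95% interval -0.94 to 0.17, edgeR adjusted p 1). The transporter slc18a2.L had 16 counts in all, with 5 at Ext 4 h, 3 at Ext 0 h, 2 at ATP 4 h, 5 at ATP 0 h and 1 in Ctrl. A difference between groups in slc18a2.L was not detectable at this depth, where 3 counts correspond to 0.134 to 0.271 CPM in a library. Of 40 rows in a list of serotonin synthesis, transport and receptor genes, 11 were tested, and edgeR called 0 of them in each comparison. Averaged over both stimuli, 4 of those 11 were higher and 7 lower at 4 h, where 50.4% of all genes were lower and 0.0582% were called. Their median log2 fold change was -0.08, and 1 gene had an unadjusted p under 0.05 in edgeR, beside 9.75% of all genes. That gene was spr.L, which encodes sepiapterin reductase of the pathway to the hydroxylase cofactor, and its edgeR adjusted p was 0.26.

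**Figure D3:**
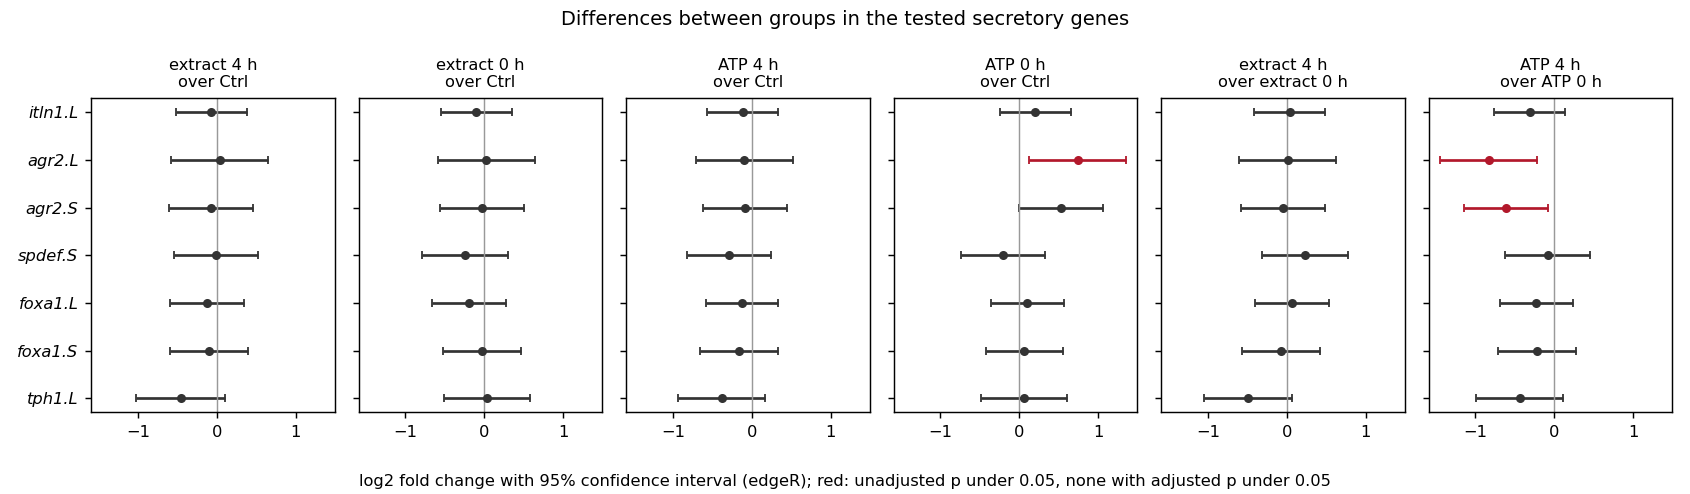
Log2 fold changes of the 7 tested secretory genes (rows) in 6 comparisons (panels), with 95% confidence intervals from edgeR. Red marks an unadjusted p under 0.05, reached by agr2.L between ATP 0 h and Ctrl and by both agr2 copies between ATP 4 h and ATP 0 h.

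Counted over the 7 tested members, the extract groups were close to Ctrl. Both copies of agr2 and of foxa1 are among these members, so the counts here and below are not of independent genes. At Ext 4 h against Ctrl, 1 member was higher and 6 were lower, where 49.9% of all genes were lower, and the median log2 fold change was -0.07 against 0.00 over all genes. This split turned to 6 higher and 1 lower without Ctrl replicate 2 (median 0.06) and in the authors' deposited table (median 0.01). With surrogate variables it was 5 higher and 2 lower, whereas all 7 were lower without Ext 4 h replicate 3 (median -0.23). edgeR and DESeq2 each called 0 members, beside 0% of all genes in edgeR. Each had 0 members at an unadjusted p under 0.05, beside 7.27% of all genes in edgeR. The groups did not overlap for 1 member, tph1.L, which was lower, beside 5.68% of all genes. At Ext 0 h against Ctrl, 2 members were higher and 5 lower, where 47.1% of all genes were lower, and the median was -0.03 against 0.01 over all genes. Here 5 members were higher and 2 lower without Ctrl replicate 2 (median 0.05), and 6 higher and 1 lower with surrogate variables (median 0.10). Without Ctrl replicate 3 the median was -0.14. Again edgeR and DESeq2 called 0 members, with 0 at an unadjusted p under 0.05 in each, beside 0% and 4.53% of all genes in edgeR. No member had groups without overlap, beside 3.98% of all genes that were higher and 3.7% that were lower in that way.

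The ATP groups were compared with the same Ctrl libraries. The members' median log2 CPM had an SD of 0.212 between libraries of a group. This is a spread of single libraries and not the error of a difference between group means. With all libraries, both medians that follow were smaller than 0.212, whereas those of ATP 4 h and Ext 0 h against ATP 0 h, given further below, were larger. At ATP 4 h against Ctrl, all 7 members were lower, as were 49.4% of all genes, with a median log2 fold change of -0.12 against 0.00 over all genes. This rests on single libraries, since 4 members were higher and 3 lower both without ATP 4 h replicate 1 (median 0.07) and without Ctrl replicate 2 (median 0.01), and without ATP 4 h replicate 2 the median was -0.37. edgeR and DESeq2 called 0 members, with 0 at an unadjusted p under 0.05 in each, beside 0.00416% and 3.29% of all genes in edgeR. Only tph1.L had groups without overlap, beside 4.47% of all genes that were lower in that way. At ATP 0 h against Ctrl, 6 members were higher and 1 was lower, where 50.6% of all genes were higher, and the median was 0.10 against 0.00 over all genes, or 0.29 without Ctrl replicate 2 and 0.05 without Ctrl replicate 1. edgeR and DESeq2 called 0 members, beside 0% of all genes in edgeR. At an unadjusted p under 0.05 there was 1 member in edgeR, beside 3.58% of all genes, and 2 in DESeq2. The agr2 copies were the 2 members whose groups did not overlap, beside 5.4% of all genes that were higher in that way.

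Between ATP 4 h and ATP 0 h all 7 members were lower, as were 50.3% of all genes, and the members' median was -0.32 against 0.00 over all genes. Without ATP 4 h replicate 1, 2 members were higher and 5 lower, with a median of -0.21, and without ATP 4 h replicate 2 the median was -0.49. edgeR and DESeq2 called 0 members, beside 0.0125% of all genes in edgeR. Each tool had 2 members, the agr2 copies, at an unadjusted p under 0.05, beside 8.84% of all genes in edgeR. The groups did not overlap for agr2.L, agr2.S and tph1.L, beside 7.82% of all genes. For tph1.L they barely parted, at 1.59 CPM in ATP 4 h replicate 3 (26 counts) and 1.60 CPM in ATP 0 h replicate 2 (29 counts). Between Ext 4 h and Ext 0 h, 4 members were higher and 3 lower, where 49.5% of all genes were higher, with a median of 0.01. There edgeR and DESeq2 called 0 members, with 0 at an unadjusted p under 0.05 in each, beside 0% and 2.37% of all genes in edgeR. Each member's groups overlapped, beside 3.73% of all genes that were higher and 3.33% that were lower without overlap.

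The difference between these time effects, tested as an interaction, was positive for 6 members and for 50.8% of all genes. edgeR and DESeq2 called 0 members in it, beside 0% of all genes in edgeR. There 0 members had an unadjusted p under 0.05 in edgeR, beside 1.37% of all genes, and 1 had one in DESeq2. For agr2.L the interaction was 0.85 with a standard error of 0.406, an edgeR adjusted p of 1. It was 0.46 without Ext 4 h replicate 3 and 0.37 with surrogate variables. Averaged over both stimuli, 1 member was higher and 6 were lower at 4 h, where 50.4% of all genes were lower, and the median was -0.15 against 0.00 over all genes. edgeR and DESeq2 called 0 members, beside 0.0582% of all genes in edgeR. At an unadjusted p under 0.05 there was 1 member in edgeR, beside 9.75% of all genes, and 2 in DESeq2. Each member's 6 libraries at 4 h overlapped the 6 at 0 h, beside 0.27% of all genes that were higher and 0.291% that were lower without overlap.

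The stimuli were also set against each other. Between Ext 0 h and ATP 0 h all 7 members were lower, as were 51.3% of all genes, with a median of -0.29 against -0.01 over all genes. With surrogate variables in the fit 4 members were higher and 3 lower, with a median of 0.08. In the authors' deposited table the median was -0.06, with 2 members higher and 5 lower. edgeR and DESeq2 called 0 members, beside 0% of all genes in edgeR, and each had the 2 agr2 copies at an unadjusted p under 0.05, beside 5.2% of all genes in edgeR. Only the agr2 copies had groups without overlap, beside 6.89% of all genes. Between Ext 4 h and ATP 4 h, 6 members were higher and 1 lower, where 52.7% of all genes were higher, with a median of 0.05. This split rests on single libraries. It turned to 1 higher and 6 lower without ATP 4 h replicate 1 (median -0.10) and without Ext 4 h replicate 3 (median -0.07). Without ATP 4 h replicate 2 the median was 0.26. edgeR and DESeq2 called 0 members there, with 0 at an unadjusted p under 0.05 in each, beside 0% and 4.28% of all genes in edgeR. No member had groups without overlap, beside 3.64% of all genes that were higher and 5.5% that were lower in that way.

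All groups entered the last tests together. With the 4 stimulated groups averaged against Ctrl, 2 members were higher and 5 lower, where 49.2% of all genes were lower, with a median of -0.06. Without Ctrl replicate 2, 5 were higher and 2 lower (median 0.12), and without Ctrl replicate 1 the median was -0.16. edgeR and DESeq2 called 0 members, with 0 at an unadjusted p under 0.05 in each, beside 0% and 4.23% of all genes in edgeR. Each member's libraries overlapped, beside 0.162% of all genes that were higher and 0.0873% that were lower without overlap. In the test for any difference among the 5 groups, edgeR and DESeq2 again called 0 members, beside 0.0208% of all genes in edgeR. At an unadjusted p under 0.05 there were 0 members in edgeR, beside 6.48% of all genes, and 1 in DESeq2.

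The ribosomal RNA share moved with agr2 across the libraries. This share was 20.1% to 39.2% at Ext 4 h, 21.9% to 38.2% at Ext 0 h, 21.0% to 31.7% at ATP 4 h, 28.2% to 43.3% at ATP 0 h and 26.4% to 36.9% in Ctrl. The ATP 0 h replicate 3 library, which had the highest agr2.L, agr2.S, itln1.L and tph1.L, also had the highest ribosomal share. Over the 15 libraries and 7 relations, the Pearson correlation of the ribosomal share with log2 CPM was 0.68 for agr2.L (permutation p 0.00312, adjusted 0.0134) and 0.71 for agr2.S (permutation p 0.00383, adjusted 0.0134). Spearman's rho was 0.545 for agr2.L (permutation p 0.038, adjusted 0.112) and 0.69 for agr2.S (permutation p 0.00559, adjusted 0.0391). Without the 2 libraries farthest from the median ribosomal share, r was 0.48 for agr2.L and 0.53 for agr2.S. For itln1.L, r was 0.536 (permutation p 0.0416, adjusted 0.0971) and rho 0.493 (permutation p 0.0638, adjusted 0.112), and neither passed. The other 4 members had r from 0.127 to 0.482, with adjusted permutation p-values of r of 0.123 or more. Without the 2 farthest libraries, r was 0.55 for spdef.S, above both agr2 copies. It was 0.35 for itln1.L, 0.254 for foxa1.S, 0.109 for foxa1.L and 0.0364 for tph1.L. The permutations ran over all 15 libraries without regard to group, so differences between groups enter r, rho and their p-values. The mean share was highest at ATP 0 h (35.6%), where agr2 was highest too, and lowest at ATP 4 h (26.1%). Within a replicate number there were only 5 libraries, too few for a correlation. With the ribosomal share as a covariate, chosen after the data were seen, the log2 fold change between ATP 0 h and Ctrl was 0.59 for agr2.L and 0.41 for agr2.S, and that between ATP 4 h and ATP 0 h was -0.48 and -0.32.

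**Figure D4:**
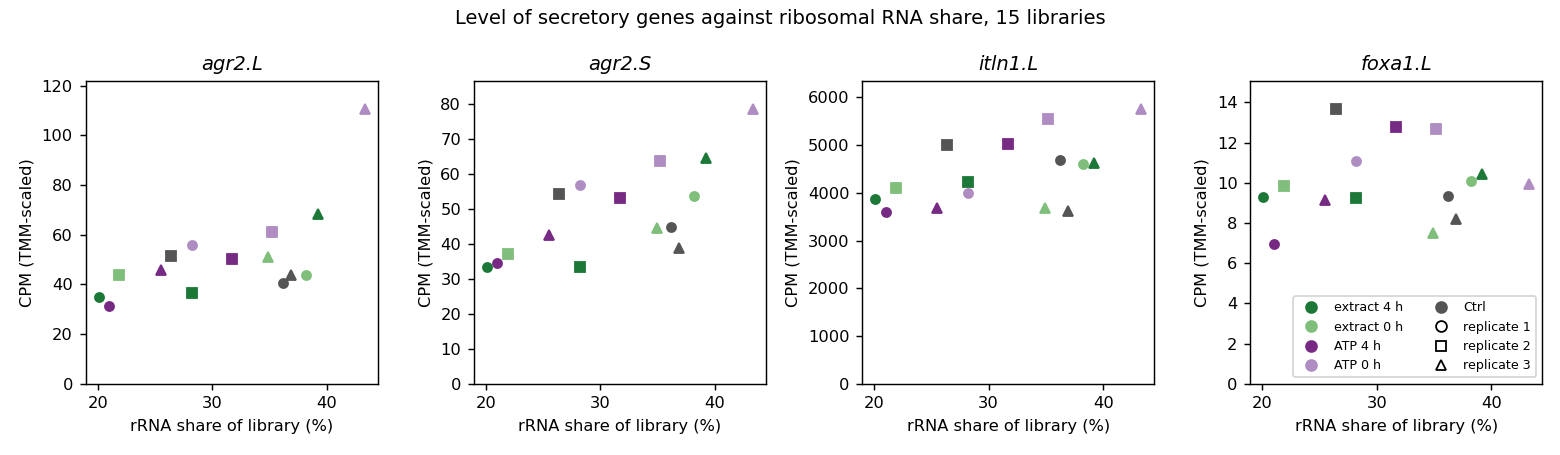
Level of agr2.L, agr2.S, itln1.L and foxa1.L in CPM (y axes, from 0) against the ribosomal RNA share of the library in percent (x axes), for 15 libraries coloured by group. ATP 0 h replicate 3, at 43.3%, is highest for the first 3 genes, and foxa1.L has no such trend (r = 0.127).

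Markers of other cell types were also read in the ATP groups. At ATP 4 h against ATP 0 h, 2 of the 16 tested multiciliated cell genes were higher and 14 lower, with a median log2 fold change of -0.20. Their summed level was 383 to 473 CPM at ATP 4 h and 387 to 489 CPM at ATP 0 h. Of 15 tested ionocyte genes, 5 were higher and 10 lower, with a median of -0.17. The ionocyte sums did not overlap, at 643 to 739 CPM at ATP 4 h and 750 to 821 CPM at ATP 0 h. The Ctrl sum, at 680 to 806 CPM, overlapped both. Of 13 tested keratinocyte genes, 11 were higher and 2 lower, with a median of 0.42, and the sums were 2363 to 3313 CPM at ATP 4 h and 1774 to 2537 CPM at ATP 0 h. edgeR called 0 genes of each of these lists there, with 3 multiciliated, 2 ionocyte and 3 keratinocyte genes at an unadjusted p under 0.05. Of all genes in that comparison, 50.3% were lower, 0.0125% were called by edgeR and 8.84% had an unadjusted p under 0.05. Single genes that were lower without overlap of the groups made up 7.82%.

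Muscle markers were higher at ATP 4 h than at ATP 0 h in summed level. The 20 mesoderm, muscle and blood genes, of which 6 were tested, summed to 86.8 to 187 CPM at ATP 4 h. At ATP 0 h they summed to 5.60 to 63.3 CPM, without overlap. How often sums over other genes part in this way was not counted. All 6 tested genes were higher at ATP 4 h, with a median log2 fold change of 2.01, where 11955 of all 24052 genes were higher. Both copies of actc1 are among these 6, so they are not independent genes. edgeR called 0 of them, with 2 at an unadjusted p under 0.05, beside 0.0125% and 8.84% of all genes. The sum was 5.43 to 27.9 CPM at Ext 4 h, 3.57 to 17 CPM at Ext 0 h and 13.1 to 156 CPM in Ctrl. The rows of the early muscle factors myod1 and myf5 each stood at 0.677 CPM or less in every library. Another row of the list, actc1.L, stood at 19.3, 36.7 and 13.4 CPM at ATP 4 h. It was 1.02, 10.1 and 2.49 CPM at ATP 0 h and 10.5, 24.2 and 2.88 CPM in Ctrl. Its edgeR adjusted p for any difference among the groups was 0.646. The 7 cement gland genes, a further site of agr2, summed to 21.5 to 34.9 CPM at ATP 4 h, 24.2 to 31.6 CPM at ATP 0 h and 18.2 to 37.7 CPM in Ctrl, overlapping throughout. The part of these cell types in the differences of agr2 and tph1.L was not tested.

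Some of the secretory genes varied together from library to library. Of 8 relations between members, the closest was that of agr2.L with agr2.S, with r 0.901 (permutation p 2e-05, adjusted 0.00016), rho 0.879 (permutation p 5e-05, adjusted 0.0004) and 0.866 without the 2 farthest libraries; reads shared between the copies enter it. The level of itln1.L followed foxa1.L with r 0.737 (permutation p 0.00192, adjusted 0.00512), rho 0.789 (permutation p 0.00085, adjusted 0.0034) and r 0.818 without the 2 farthest libraries. It followed agr2.S with r 0.772 (permutation p 0.00093, adjusted 0.00372), rho 0.693 (permutation p 0.00567, adjusted 0.0151) and r 0.612 without 2 libraries. With agr2.L it had r 0.664 (permutation p 0.00458, adjusted 0.00821), rho 0.543 (permutation p 0.0395, adjusted 0.0633) and r 0.391 without 2 libraries, so that relation rests partly on those libraries. The foxa1 copies had r 0.672 (permutation p 0.00513, adjusted 0.00821), rho 0.611 (permutation p 0.0187, adjusted 0.0373) and r 0.368 without 2 libraries. Between itln1.L and foxa1.S, spdef.S or tph1.L, r was 0.44, 0.397 and 0.325, and none passed the threshold (adjusted permutation p 0.127, 0.159 and 0.236). All libraries share the scaling, and these levels also vary with the composition of each library. The permutations disregarded the groups, so differences between groups enter these relations and their p-values.

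Many other genes also had close relations with itln1.L or foxa1.L. Among 20995 genes with a mean of at least 1 CPM, 5% had r above 0.706 with itln1.L and 5% had r above 0.724 with foxa1.L. The r of itln1.L with foxa1.L (0.737) and with agr2.S (0.772) lay above these levels. The relation of agr2.L with agr2.S was not set against other genes. The 5 genes most like itln1.L over the 15 libraries were XB5727854.L, timm8b.S, LOC108718073, LOC108703787 and tmem50a.L, with r from 0.898 to 0.909. The 5 most like foxa1.L were stt3a.L, rpn2.S, vdac3.L, abhd17a.S and atp5f1b.L, with r from 0.93 to 0.94.

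The machinery around the members was read from 5 further lists. Of 49 rows for the enzymes that add O-linked sugars to mucins, 39 were tested. Averaged over both stimuli, 30 of these were higher and 9 lower at 4 h, where 50.4% of all genes were lower. Their median log2 fold change was 0.10 against 0.00 over all genes. edgeR called 0 of them, beside 0.0582% of all genes, with 7 at an unadjusted p under 0.05, all higher. Of all genes, 9.75% had such a p in either direction, and 1176 of 24052 had one and were higher. The same shares of all genes apply to the counts at 4 h against 0 h that follow. The sialyltransferase gene st3gal4.L, at 3.89 to 8.99 CPM over the libraries, had the smallest edgeR adjusted p in that comparison, 0.424. Of 62 rows for folding of secreted proteins in the endoplasmic reticulum, 59 were tested, of which 33 were higher and 26 lower at 4 h, with a median of 0.02, 0 calls by edgeR and 4 at an unadjusted p under 0.05. Among 70 rows for the exocytosis of granules, 47 were tested, with 25 higher, 22 lower, a median of 0.01, 0 calls and 3 at an unadjusted p under 0.05.

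Of 49 rows for regulators of secretory and epidermal fate, 34 were tested, with 11 higher and 23 lower at 4 h and a median of -0.12. Beside the same 0.0582% of all genes, edgeR called 1, sox9.S, a factor of many progenitor cells, which was lower at 4 h (edgeR adjusted p 0.0201). The list was chosen with earlier results of these data known, so this call is no independent support for the list. At an unadjusted p under 0.05 there were 10 in edgeR, all lower. Of all genes, 9.75% had such a p in either direction, and 1169 of 24052 had one and were lower. Of 7 mucin rows, 3 were tested and edgeR called 0 in each comparison, with muc1.S, which encodes a membrane mucin, among them. Its level averaged 32.7 ± 1.98 CPM at Ext 4 h, 36.6 ± 6.28 CPM at Ext 0 h, 29.2 ± 4.55 CPM at ATP 4 h, 30.2 ± 5.62 CPM at ATP 0 h and 25.6 ± 2.35 CPM in Ctrl (SD, n = 3 each). The log2 fold change of muc1.S from Ctrl was 0.35 at Ext 4 h (edgeR adjusted p 0.673) and 0.51 at Ext 0 h (edgeR adjusted p 0.906), and neither was called. The other copy, muc1.L, had 0.29 at Ext 4 h and 0.36 at Ext 0 h (unadjusted edgeR p 0.217 and 0.128). Its means there, 39.7 and 41.8 CPM, lay within its Ctrl range of 23.3 to 42.7 CPM.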

How the data were processed

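Stranded total RNA libraries depleted of ribosomal RNA were sequenced as single-end 75 nt reads, per the labels. The authors deposited expected counts per gene, and fastp, STAR, RSEM and limma are named in the submitters' processing notes. Versions, genome build and annotation are not given in the sources used here, so no coordinates are printed. RSEM divides reads that fit several genes, and 69.1% of the expected counts, zeros included, equalled a whole number exactly. The authors also deposited log2 CPM adjusted for surrogate variables for 28009 genes, and how these were estimated is not given in the sources used here; that table, which held 10 of the 12 members, served as an alternative.

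Groups and replicate numbers came from the sample titles. Expected counts were rounded, filtered with filterByExpr (24052 of 42638 genes kept), scaled with TMM and fitted in edgeR 4.0.16 (R 4.3.3) by the robust quasi-likelihood method, with 1 coefficient per group over all 15 libraries. Two-sided p-values received a Benjamini-Hochberg adjustment across the 24052 genes, and those under 0.05 were called. The common biological coefficient of variation was 0.189. The prior count was 0.125 for fold changes and 2 for log2 CPM. Intervals are 95% intervals, and correlations were tested with 100000 permutations over all 15 libraries, without regard to group. Intervals of fold changes include the spread between libraries as edgeR estimated it. Limits for counts of 0 cover counting error only. The fit was tested on simulated data.

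All rows that matched the symbols are named, and in each other list the 2 genes with the smallest p of the overall test could be named, with any called gene. The members and lists were chosen with earlier results of these data known. Symbols were matched to the RefSeq table of Xenopus_laevis_v10.1 (40077 genes), which identified 375 ribosomal RNA genes and the aliases. The rows otogl2.L, ag1.S, muc1.L, muc2l.L and muc22.S were named after their values were seen. No other columns held values (0 columns).

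Same-numbered libraries deviated together (each of 3 correlations above 0.1, the lowest 0.158) in 5 of 10 pairs of groups, namely ATP 0 h with ATP 4 h, Ext 0 h and Ctrl, and Ctrl with Ext 0 h and ATP 4 h. The pairing comes from the replicate numbers in the titles and this check. The alternatives comprised a replicate block, surrogate variables (sva 3.50.0, 3 used), DESeq2 1.42.0, limma-voom (limma 3.58.1), RLE factors, 2 other filters, only the groups compared, ribosomal genes left out, homeologs summed, the authors' adjusted table, and each library left out in turn. The ribosomal share as a covariate was added after the data were seen. Replicate pairs all differed by more than sampling noise.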

Additional observations from a re-analysis of the deposited data

How the results depend on the processing

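Members called stayed at 0 in all 12 comparisons under every alternative run except the authors' deposited table of adjusted log2 CPM. There limma called 2 members at ATP 0 h against Ctrl, 2 at ATP 4 h against ATP 0 h, 1 at Ext 0 h against ATP 0 h, 2 at 4 h against 0 h averaged and 2 in the test for any difference, all of them agr2 copies, among 539, 1769, 231, 2536 and 3987 genes called in that table. The values there had been adjusted before limma was run, so its p-values may be too small. The cause of the difference in calls was not tested. Leaving out each library in turn gave 0 members called in every comparison. With the replicate number as a block, 0 members were called in each comparison, so the block changed no call. The check of pairing was met in only 5 of 10 pairs of groups and in none with Ext 4 h. It was met between ATP 0 h and each of Ctrl, ATP 4 h and Ext 0 h. With the block, agr2.L had a log2 fold change of 0.68 at ATP 0 h against Ctrl (edgeR adjusted p 0.694). It was -0.80 at ATP 4 h against ATP 0 h (edgeR adjusted p 0.187) and -0.66 at Ext 0 h against ATP 0 h (edgeR adjusted p 0.61). Over 26 alternatives the log2 fold change of agr2.L at ATP 0 h against Ctrl ranged from 0.37 to 0.91, with adjusted p-values from 0.0127 to 1. With 3 surrogate variables, agr2.L at ATP 4 h against ATP 0 h was -0.42 in place of -0.83, and the members' median at Ext 0 h against ATP 0 h was 0.08 in place of -0.29. At ATP 4 h against Ctrl, the median of -0.12 was -0.37 without ATP 4 h replicate 2 but 0.07 without ATP 4 h replicate 1 and 0.01 without Ctrl replicate 2. Of the values of single members, 2132 kept their direction or moved within the spread between replicates, 15 moved further and 9, all of agr2 in the authors' table, newly passed the threshold. Depth limits the 5 members with few counts, and tph1.L with 15 to 44 counts per library.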

Other observations

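A gene outside the chosen symbols that is named for its likeness to the gel-forming mucin muc2, muc2l.L, was uneven between libraries of the same group. Its level was 3.16, 3.41 and 34.9 CPM at Ext 4 h and 1.17, 1.07 and 1.09 CPM at Ext 0 h. It was 0.522, 4.69 and 1.04 CPM at ATP 4 h, 0.593, 1.71 and 153 CPM at ATP 0 h and 5.04, 6.31 and 88.6 CPM in Ctrl. The 3 libraries above 30 CPM were all numbered replicate 3, in the Ext 4 h, ATP 0 h and Ctrl groups, while replicate 3 of Ext 0 h and ATP 4 h stood near 1 CPM. The edgeR adjusted p for any difference among the groups was 0.812. The goblet cell gene itln1.L varied far less among the same libraries, with a coefficient of variation of 16%. The mucin-like gene muc22.S averaged 54.8 ± 7.14 CPM at Ext 4 h, 49.9 ± 21.8 CPM at Ext 0 h, 28.6 ± 6.74 CPM at ATP 4 h, 27.9 ± 9.09 CPM at ATP 0 h and 37.4 ± 21.8 CPM in Ctrl (SD, n = 3 each), with an edgeR adjusted p of 0.812. Both genes were picked after their values were seen.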
